A study of Mus musculus with 3 samples.

Results

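The vascular endothelial growth factor (VEGF) system was examined in ribosome-associated RNA of cardiac endothelial cells. Its 9 genes were taken by name from a table of 17583 genes, and all 9 were listed. They are the receptor tyrosine kinases Flt1, Kdr and Flt4, the co-receptors Nrp1 and Nrp2, and the ligands Vegfa, Vegfb, Vegfc and Pgf. The 3 samples come from hearts of 3 mice of 1 genotype, Cdh5-CreERT2;Rpl22tm1.1Psam (EC-RiboTag), in which tamoxifen-induced Cre recombinase, driven by the endothelial Cdh5 promoter, adds a hemagglutinin tag to the ribosomal protein RPL22. Tagged ribosomes were pulled down from frozen, homogenized heart tissue, and the RNA on them was sequenced, 1 library for each mouse. The labels state that coronary ligation had been performed 7 days earlier, but the RiboTag methods of the study do not mention it. The labels do not spell out the letters Rz in the sample titles. Elsewhere the study describes pulldowns from the remote zone (RZ), border and infarct zones of EC-RiboTag hearts at the same time after infarction, measured by PCR. It also reports RNA sequencing of EC-RiboTag hearts (n = 3) with no infarction named. Which of these describes the 3 libraries is not stated. Mice of the study were of a C57BL/6 background. Sex and age of the 3 mice are not given in the labels. Without a second condition, an input library or a control library, the data hold levels within the pulldown and no response to a treatment.

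VEGF ligands are secreted dimers that bind receptor tyrosine kinases on endothelial cells. Kdr encodes VEGFR2, the main signaling receptor for VEGF-A in blood vessels, and Flt1 encodes VEGFR1, which binds VEGF-A, VEGF-B and placenta growth factor tightly but signals weakly and also exists as a secreted decoy. Flt4 encodes VEGFR3, the receptor for VEGF-C, best known from lymphatic vessels. Neuropilins hold VEGF at the cell surface beside the kinases and also serve as receptors for class 3 semaphorins. In the heart, cardiomyocytes are a known source of VEGF-A and VEGF-B.

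The kinases and the ligands each carry a conserved coding stretch, which is shown because it holds the signature of its family and how far its members differ in it. In the receptors this is the segment of 69 bases that encodes the catalytic loop of the kinase up to the following DFG motif. It lies within exon 23 of the canonical transcript of each receptor in GRCm39, at chr5:147517160-147517228 on the minus strand for Flt1, at chr5:76105231-76105299 on the minus strand for Kdr and at chr11:49529095-49529163 on the plus strand for Flt4. Capitals mark the 46 bases that are the same in the 3 genes.
Flt1: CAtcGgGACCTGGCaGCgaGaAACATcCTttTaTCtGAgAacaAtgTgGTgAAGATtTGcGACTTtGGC
Kdr: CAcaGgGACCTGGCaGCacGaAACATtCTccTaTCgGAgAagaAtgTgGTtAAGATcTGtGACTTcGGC
Flt4: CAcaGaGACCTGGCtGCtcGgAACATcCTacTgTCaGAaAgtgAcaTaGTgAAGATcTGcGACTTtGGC
Flt1 and Kdr were the most alike, with 13 of the 69 bases different, whereas Flt4 differed from Flt1 at 19 and from Kdr at 18 bases.

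In the ligands the stretch encodes the cysteine-rich signature of the cystine knot, the fold that VEGFs share with platelet-derived growth factors. It spans 39 bases within exon 3 of each canonical transcript, at chr17:46336327-46336365 (minus strand) for Vegfa, chr19:6963712-6963750 (minus) for Vegfb, chr8:54612426-54612464 (plus) for Vegfc and chr12:85218488-85218526 (minus) for Pgf. Capitals mark the 19 bases that the 4 ligands have in common.
Vegfa: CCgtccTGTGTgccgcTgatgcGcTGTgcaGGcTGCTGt
Vegfb: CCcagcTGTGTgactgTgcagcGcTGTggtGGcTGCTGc
Vegfc: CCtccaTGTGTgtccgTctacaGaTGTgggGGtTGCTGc
Pgf: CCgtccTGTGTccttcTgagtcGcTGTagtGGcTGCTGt
Vegfa and Pgf were the closest pair, with 8 bases different, and Vegfc and Pgf the most distant, with 18. The longest run of identical bases between any pair of the 9 canonical transcripts was 45, between Nrp2 and Vegfa, shorter than the 72 bases of an untrimmed read. No window of 72 bases in 8 of the transcripts had an exact copy elsewhere in the genome, and in Nrp2 26 of 6688 windows (0.389%) had one. No other gene on the same strand shares annotated exon bases with a member, except for 80 bases of Nrp1 that lie in Mir1903.

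Sequencing depth was similar in the 3 libraries. The authors deposited counts that had been divided by a size factor for each library and rounded to whole numbers (normalized counts). The whole numbers that this rounding skips or doubles give the worth of a read as 0.977, 1.06 and 0.961 normalized counts in mice 1, 2 and 3, which makes about 7320000, 6755000 and 7566000 reads on listed genes. Squared differences between pairs of libraries averaged 5.48 to 8.31 times the variance that counting alone gives, so none is a copy of another. These are ratios of variances, unlike the ratios of SDs to counting given for single genes below. Mouse 1 differed from the other mice in sex-linked transcripts, with 4 normalized counts of Xist, against 618 and 869, and 1080 of Ddx3y, against 3 and 1. All 12 genes of an endothelial marker list reached at least 300 normalized counts per kilobase of canonical transcript in every mouse. So did 6 of 10 cardiomyocyte markers and 10.9% of all genes with a known length. By the length of all annotated exons the 12 and the 6 became 8 and 1. Over all genes with a known length the count fell from 1904 to 416. All 10 cardiomyocyte markers were detected in every mouse, so each pulldown held RNA of heart muscle. Fibroblast, mural and leukocyte markers were lower, with median levels of 103, 47.1 and 23.0 per kilobase, against 688 for the endothelial and 565 for the cardiomyocyte list.

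Flt1 was the highest member. Its gene is at chr5:147498414-147662821 on the minus strand (coordinates of genes are those of the deposited table, GRCm39). It had 5352, 4588 and 4816 normalized counts in mice 1, 2 and 3, or 4919 ± 392 (SD, n = 3 mice), and ranked 3 among the 17583 genes. Mouse 1 was the highest and mouse 2 the lowest, 1.17-fold apart. In a pulldown from whole tissue, fewer cells of a type and less RNA per cell cannot be told apart. A longer transcript gives more reads, so levels of different genes were compared per kilobase of the Ensembl canonical transcript. On that scale Flt1, with 6895 bases in 30 exons, had 713 ± 56.9 normalized counts per kilobase and ranked 119 among 17475 genes with a known length. The table gives 1 value per gene, and the annotation holds both full-length Flt1 transcripts and Flt1-203, which ends after 13 exons with a coding length of 2064 bases and has 6315 bases in all. Membrane-bound and secreted forms of VEGFR1 can therefore not be told apart in these counts.

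Kdr (chr5:76093487-76139118, minus strand) was the steadiest member between mice. Its values of 3345, 3193 and 3311 normalized counts, 3283 ± 79.8 (SD, n = 3), lay within 1.05-fold of each other. The coefficient of variation (CV, the SD as a percentage of the mean) was 2.43%, close to the 1.75% expected from counting reads. Per kilobase of its canonical transcript of 5924 bases Kdr had 554 ± 13.5 and ranked 399, above 5 of the 12 endothelial markers. Relative to the median of those 12 markers within each mouse, Kdr stood at 81.6% ± 4.0 and Flt1 at 105% ± 8.2 (SD, n = 3).

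Flt4 (chr11:49500090-49543566, plus strand) was lower and more variable. Mice 1, 2 and 3 had 1396, 1628 and 1898 normalized counts, or 1641 ± 251 (SD, n = 3), and its CV of 15.3% was 6.16 times that expected from counting. Per kilobase it had 262 ± 40.1 and ranked 2858. The endothelial markers did not move with it, since 1 of 12 was lowest in mouse 1 and highest in mouse 3. Among 6 markers of lymphatic endothelium, all of them detected, 3 had that pattern, against 16.0% of all genes that averaged 200 or more. The pattern was not particular to them, since 4 of 7 leukocyte, 4 of 8 mural and 3 of 9 fibroblast markers had it, and 10 of 16 further genes of the ligand system. The summed normalized counts of the 6 lymphatic markers were 2343, 3034 and 3523 in mice 1, 2 and 3. The hyaluronan receptor gene Lyve1, with 645, 758 and 1023, Mmrn1 and Reln followed the pattern of Flt4. Prox1, the transcription factor that specifies lymphatic identity, had 349, 554 and 550, so that mice 2 and 3 were nearly level. Pdpn, with 193, 312 and 264, was highest in mouse 2. So was Ccl21a, with 251, 271 and 254, but its CV was only 4.17%. A split of the list by highest mouse therefore rests in part on near ties. The lymphatic list had a median of 104 per kilobase. None of its genes reached 300 in every mouse, a limit reached by 10.9% of genes with a length. The part of RNA from any of these cell types in the value of Flt4 was not tested.

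**Figure D1:**
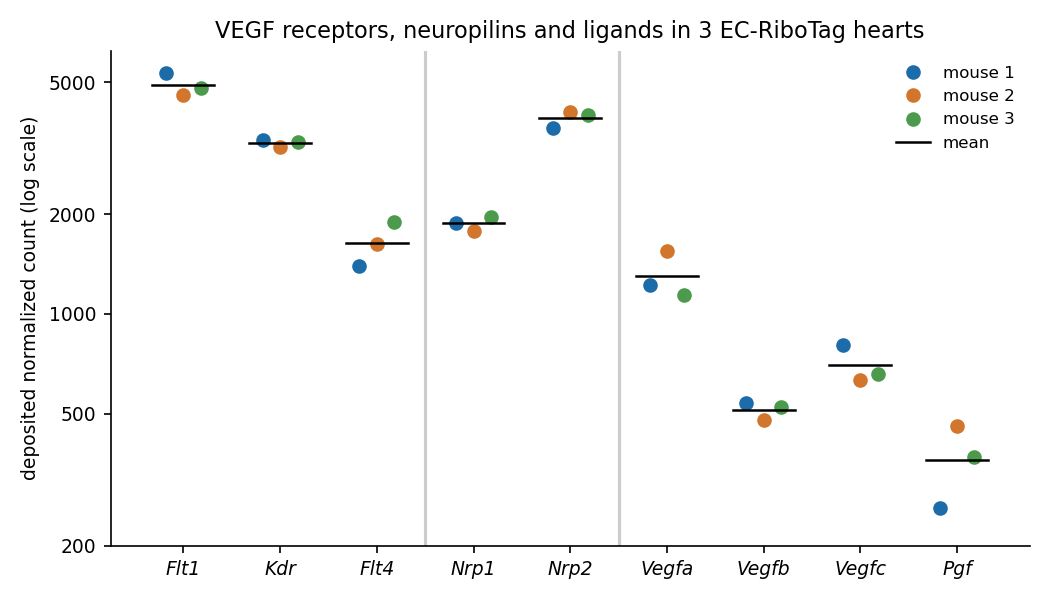
Deposited normalized counts (log scale) of the 9 genes, with 1 point per mouse and a bar at the mean of 3 mice. Vertical lines separate receptor tyrosine kinases, neuropilins and ligands. The values run from 5352 for Flt1 in mouse 1 to 260 for Pgf in mouse 1, and the widest span between mice is 1.77-fold, for Pgf.

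The 2 neuropilins differed in level. Nrp2 (chr1:62742444-62857854, plus strand) had 3636, 4063 and 3993 normalized counts, or 3897 ± 229 (SD, n = 3), rank 11 of all genes. Nrp1 (chr8:129085085-129229844, plus strand) had 1887, 1779 and 1965, or 1877 ± 93.4, rank 313. Per kilobase of canonical transcript, 6759 bases for Nrp2 and 5135 for Nrp1, they had 577 ± 33.9 and 366 ± 18.2. Nrp2 exceeded Nrp1 in each of 3 mice, with a log2 ratio of 0.66 ± 0.13 (SD, n = 3), and the exact sign-flip permutation test over mice gave a two-sided p of 0.25. Nrp2, often named as a lymphatic and venous co-receptor, was within the spread of Kdr, with a log2 ratio of 0.06 ± 0.12 and the higher level in 2 of 3 mice. With 3 mice this test cannot give a p below 0.25, so none of the ratios could reach 0.05 by it.

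Among the kinases, Flt1 exceeded Kdr in each of 3 mice by a log2 ratio of 0.36 ± 0.08 per kilobase (SD, n = 3), a 1.28-fold difference, and Kdr exceeded Flt4 by 1.09 ± 0.23, a 2.13-fold difference (each exact sign-flip permutation test, two-sided p = 0.25). The choice of length moved the first of these. With the length of all annotated exons, 13660 bases for Flt1 and 9199 for Kdr, the log2 ratio of Flt1 to Kdr fell to 0.01, and with the mean length of coding transcripts it was 0.73. Flt1 made up 49.6%, 45.5% and 44.8% of the summed level per kilobase of the 3 kinases in mice 1, 2 and 3, Kdr 36.1%, 36.8% and 35.8%, and Flt4 14.2%, 17.7% and 19.4%. The share of Kdr was nearly the same in the 3 mice. Because the shares make up the whole, a higher share of Flt1 then had to go with a lower share of Flt4.

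Removal of duplicate reads compresses the upper end of this scale. After that step each start position on a transcript gives about 1 read at most, and Flt1 had 0.713 normalized counts per base of canonical transcript, Nrp2 0.577 and Kdr 0.554, whereas Pgf had 0.175. If read starts were spread evenly over the canonical transcript, the levels before duplicate removal would have been 1.80 times the observed one for Flt1, 1.49 times for Nrp2 and 1.46 times for Kdr, while Pgf would move from 175 to 193 normalized counts per kilobase. The log2 ratio of Flt1 to Kdr would then be 0.64 ± 0.21 (SD, n = 3). The formula keeps the order of genes within each mouse, so the unchanged order of the 9 genes is no result about duplicate removal. This correction was chosen after the values had been seen, and even coverage was not tested.

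Transcripts of all 4 ligands were present in the pulldown. Vegfa, the principal angiogenic ligand (chr17:46327919-46343295, minus strand), was the highest of them. It had 1222, 1553 and 1143 normalized counts in mice 1, 2 and 3, or 1306 ± 218 (SD, n = 3), and 377 ± 62.8 per kilobase of its canonical transcript of 3465 bases, rank 1346. Mouse 2 stood above the others, 1.31 times their mean of 1182.5, and the CV of 16.7% was 5.99 times that of counting. The 10 cardiomyocyte markers did not share this whole pattern, since 0 of 10 were lowest in mouse 3 and highest in mouse 2. Myl2, Myl3, Tnni3, Mb, Actc1 and Pln were lowest in mouse 3, as Vegfa was, but highest in mouse 1. Myh6 was highest in mouse 2 but lowest in mouse 1. Tnnt2, Ttn, with 7379, 7743 and 10190, and Ryr2, with 3280, 3667 and 4486, were highest in mouse 3. Ttn and Ryr2 weighed most on the summed values of the list, 20679, 21339 and 24237. Of the 12 endothelial markers, 5 had the whole pattern of Vegfa, against 16.0% of all genes that averaged 200 or more. The pattern names only the lowest and highest mouse and takes no account of size. The CVs of those 5 ran from 1.64% for Robo4, with 1976, 1979 and 1922, to 6.69% for Cldn5, against 16.7% for Vegfa. Nppa, a natriuretic peptide gene of cardiomyocytes that is outside the marker list, followed Vegfa closely, with 329, 415 and 318. Whether the Vegfa RNA came from endothelial cells or from muscle was not tested.

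Vegfb, a ligand of VEGFR1 (chr19:6959841-6965019, minus strand), was steadier, with 540, 479 and 525 normalized counts, or 514.7 ± 31.8 (SD, n = 3). Its CV of 6.18% was 1.40 times that of counting, and its level was 272 ± 16.8 per kilobase of a canonical transcript of 1892 bases. Vegfc, the ligand of VEGFR3 (chr8:54530641-54640131, plus strand), had 806, 633 and 661, or 700.0 ± 92.9, and 247 ± 32.8 per kilobase. Mouse 1, the lowest in Flt4, was the highest in Vegfc. The log2 ratio of Flt4 to Vegfc within a mouse accordingly ran from -0.36 in mouse 1 to 0.21 in mouse 2 and 0.37 in mouse 3, with a mean of 0.08 ± 0.38 (SD, n = 3).

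Pgf, which encodes placenta growth factor, a ligand of VEGFR1 (chr12:85213409-85224564, minus strand), was the lowest member and the most variable. Mice 1, 2 and 3 had 260, 460 and 371 normalized counts, or 363.7 ± 100.2 (SD, n = 3), and 175 ± 48.2 per kilobase, rank 4817. The CV of 27.6% compares with 5.37% expected from counting, and mouse 2 was 1.77 times mouse 1. Without mouse 1 the CV was 15.1%. Pgf was the 1 member of 9 with a CV over 20% when all mice were kept, a limit passed by 749 of the 9358 genes that averaged 200 or more (8.0%). The fibroblast list moved in a like way in part. Its summed values were 3225, 4185 and 4438 in mice 1, 2 and 3, and 4 of its 9 genes had mouse 1 lowest and mouse 2 highest, as Pgf did, against 16.2% of all genes that averaged 200 or more. These were the collagen genes Col1a1, Col1a2 and Col3a1, the last with 388, 798 and 655, and Postn, which encodes the matrix protein periostin, with 344, 741 and 671. The proteoglycan genes Lum, with 458, 309 and 618, and Dcn, with 813, 579 and 1007, were instead lowest in mouse 2, and Dpt, Pdgfra and Tcf21 were highest in mouse 3. Of the 6 lymphatic markers, 3 shared the pattern of Pgf as well, but for Prox1 and Ccl21a this rests on small differences between mice. The part of RNA from fibroblasts or lymphatic cells in the value of Pgf was not tested. That mouse 1 also stood apart in sex-linked transcripts cannot be told apart from other differences of a single animal.

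**Figure D2:**
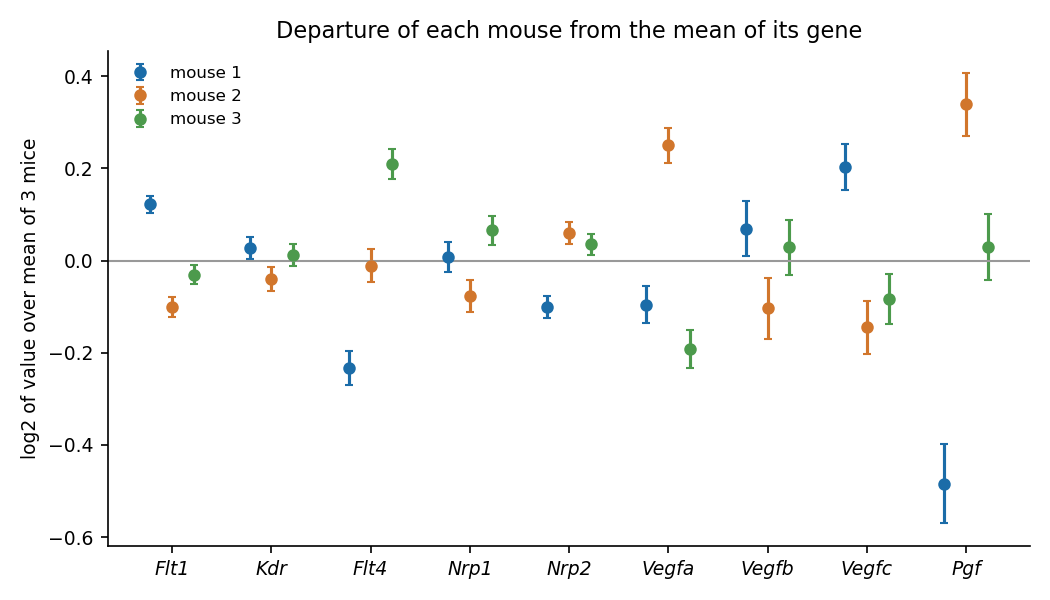
Log2 of each mouse's normalized count over the mean of the 3 mice, by gene. Error bars show ±1 SD of read counting alone. Kdr stays within 0.04 of its mean in the 3 mice, whereas Pgf runs from -0.48 in mouse 1 to 0.34 in mouse 2.

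Ordered by level per kilobase, the 9 genes were Flt1, Nrp2, Kdr, Vegfa, Nrp1, Vegfb, Flt4, Vegfc and Pgf. Neighbours were called apart when the same gene was higher in each of 3 mice and the mean log2 ratio exceeded its SD. By this rule 3 of the 8 neighbouring pairs were apart, with log2 ratios of 0.31 ± 0.20 for Flt1 over Nrp2, 0.57 ± 0.27 for Kdr over Vegfa and 0.43 ± 0.05 for Nrp1 over Vegfb (SD, n = 3). Each of the 3 turned under another length, with -0.19 for Flt1 over Nrp2 by coding length, -0.53 for Kdr over Vegfa by coding length and -0.36 for Nrp1 over Vegfb by all annotated exons. Without mouse 1 the log2 ratio of Flt1 to Nrp2 was 0.19. The other pairs were not, so that Nrp2 and Kdr, Vegfa and Nrp1, and Vegfb, Flt4, Vegfc and Pgf form runs within which neighbours did not differ beyond their spread. Vegfc exceeded Pgf in each mouse, but by 0.53 ± 0.60, from 1.19 in mouse 1 to 0.02 in mouse 2, and the mean was 0.20 without mouse 1. Over all 36 pairs, 32 had the same direction in each of 3 mice, and in 31 of these the mean ratio exceeded its SD. Among the 31 was Flt4 over Pgf, which are not neighbours in the last run, by 0.61 ± 0.33, or -0.87 by coding length. The adjusted p from the exact sign-flip permutation test was 0.28 at the lowest (Benjamini-Hochberg over 36 pairs). Vegfa exceeded Vegfb by 0.46 ± 0.32, Vegfc by 0.60 ± 0.36 and Pgf by 1.13 ± 0.32. Mouse 2 carried much of the first difference, which was 0.28 without it.

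**Figure D3:**
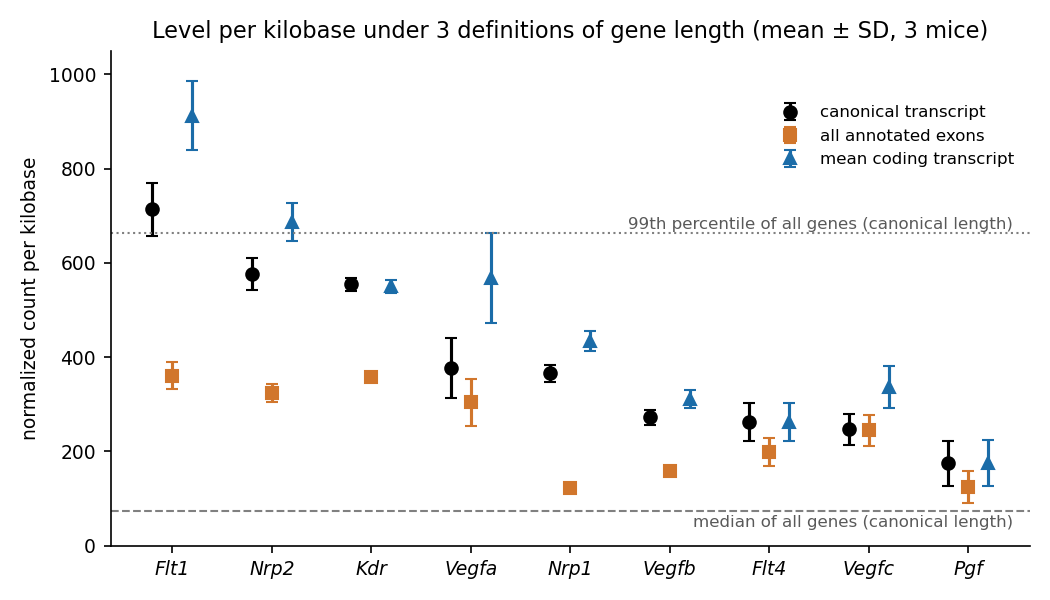
Normalized counts per kilobase of the 9 genes in the order of the canonical-transcript level, as mean ± SD of 3 mice, with 3 definitions of gene length. Lines mark the median (73.0) and the 99th percentile (664) of all genes by canonical length. Flt1 lies above the 99th percentile by canonical length at 713, and all annotated exons bring Nrp1 from 366 to 123, the lowest of the 9.

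All 9 members had at least 10 normalized counts in every mouse, as did 78.7% of the listed genes. The limit of 300 normalized counts per kilobase in every mouse was reached by Flt1, Kdr, Nrp1, Nrp2 and Vegfa, that is, by 5 of 9 members and by 10.9% of the 17475 genes with a length. With the length of all annotated exons it was reached by 3 members, Flt1, Kdr and Nrp2, and by 416 genes in all. Summed over each class, the 3 kinases had 1529 ± 56.5 normalized counts per kilobase (SD, n = 3), the 2 neuropilins 942 ± 34.3 and the 4 ligands 1071 ± 66.6. The kinases exceeded the ligands in each of 3 mice, by a log2 ratio of 0.51 ± 0.14 (exact sign-flip permutation test, two-sided p = 0.25). By coding length alone, this log2 ratio was -0.36. Vegfa made up 33.7%, 39.1% and 32.4% of the summed ligand level in mice 1, 2 and 3, and Pgf 11.9%, 19.3% and 17.5%.

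**Figure D4:**
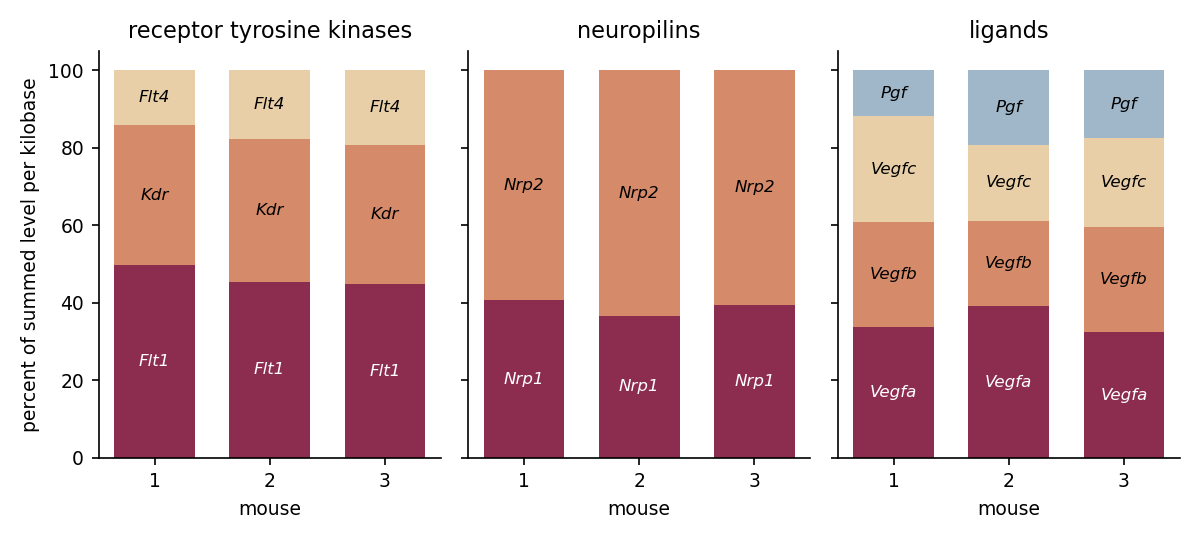
Share of each gene in the summed level per kilobase of its class, in percent, for each mouse. Kdr keeps 35.8% to 36.8% of the kinases, and Nrp2 holds 59.4% to 63.4% of the neuropilins in the 3 mice.

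The genes through which VEGF receptors signal were present at high levels. Of 30 genes for signal transduction, 29 reached 10 normalized counts in every mouse, as did 78.7% of the listed genes. In every mouse 18 reached 300 per kilobase, against 10.9% of genes with a length. The list median was 353 per kilobase against 73.0 for all genes. By all annotated exons the 18 became 5, while the count over all genes with a length fell from 1904 to 416. None of the 27 that averaged 200 or more had a CV over 20%, against 8.0% of all genes with such an average. Levels were high for the MAP kinase genes Mapk3, with 720 per kilobase, and Mapk14, with 699, for the small GTPase gene Cdc42, with 655, and for the kinase gene Akt1, with 589. Plcg1, which encodes the phospholipase that VEGFR2 engages directly, had 306, and Nos3, which encodes the endothelial nitric oxide synthase, had 410. The 1 of the 30 that fell under 10 in a mouse was the protein kinase C gene Prkcb, with 8, 17 and 20 normalized counts. Prkca, with 95, 121 and 164, and Src, with 77, 116 and 150, were low as well, at 14.5 and 27.3 per kilobase. Prkcb, Prkca and Src all averaged under 200, and their CVs were 41.6%, 27.5% and 31.9%. Of the family members of Src, Fyn had 409 per kilobase and Yes1 222, below the list median of 353.

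All 25 genes of receptor trafficking and restraint were detected in every mouse, against 78.7% of the listed genes. In every mouse 11 reached 300 per kilobase, against 10.9% of genes with a length. By all annotated exons the limit was reached by 416 of 17475 genes and by 4 of the 25. The highest were Cav1, the caveolin of endothelial caveolae, with 838 per kilobase, Cdh5, the VE-cadherin gene, with 713, the recycling GTPase gene Rab11a, with 523, the ubiquitin ligase gene Nedd4, with 502, and the endocytic adaptor gene Epn1, with 497. Ptprb, the gene of the endothelial phosphatase VE-PTP, had 356. Cdh5 and Ptprb also belong to the endothelial marker list. The median of the 25 was 263 per kilobase. Of transcripts that VEGF is known to raise in endothelium, all 15 were detected, against 78.7% of the listed genes. The limit of 300 per kilobase was reached by 9, against 10.9% of genes with a length. By all annotated exons it was reached by 7, against 416 of 17475 genes. The median of the 15 was 352. Flt1 itself is one of these 15. Beside it the highest were Pdgfb, with 656 per kilobase, the apelin gene Apln, with 600, the Notch feedback gene Nrarp, with 548, and the calcineurin regulator Rcan1, with 467. Dll4, the Notch ligand of tip cells, had 368. Among the 14 of them that averaged 200 or more, Nid2 alone had a CV over 20%, with 934, 1353 and 1435 normalized counts. Of all genes with such an average, 8.0% passed that limit.

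The remaining genes of the ligand system were lower. Of 16, 14 were detected, against 78.7% of the listed genes. In every mouse 3 reached 300 per kilobase, against 10.9% of genes with a length. By all annotated exons the limit was reached by 416 of 17475 genes and by 2 of the 16. The list median was 65.8. The highest were Sema3f, a semaphorin that binds Nrp2, with 494 per kilobase, the semaphorin receptor gene Plxnd1, with 398, Sema3g, with 361, the protease gene Adamts1, with 327, and the matricellular gene Ccn2, with 311. Vegfd, the other ligand of VEGFR3, had only 23, 18 and 24 normalized counts, against 700.0 on average for Vegfc. Ccbe1 and Adamts3, whose products activate pro-VEGF-C, were at 18, 31 and 32 and at 21, 34 and 35. Mmp9 had 1, 1 and 4. Of the 9 that averaged 200 or more, 4 had a CV over 20%, against 8.0% of all genes with such an average. Thbs1, which encodes the angiogenesis inhibitor thrombospondin-1, was one of the 4 with 184, 622 and 684, and mouse 1 was again the lowest.

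**Figure D5:**
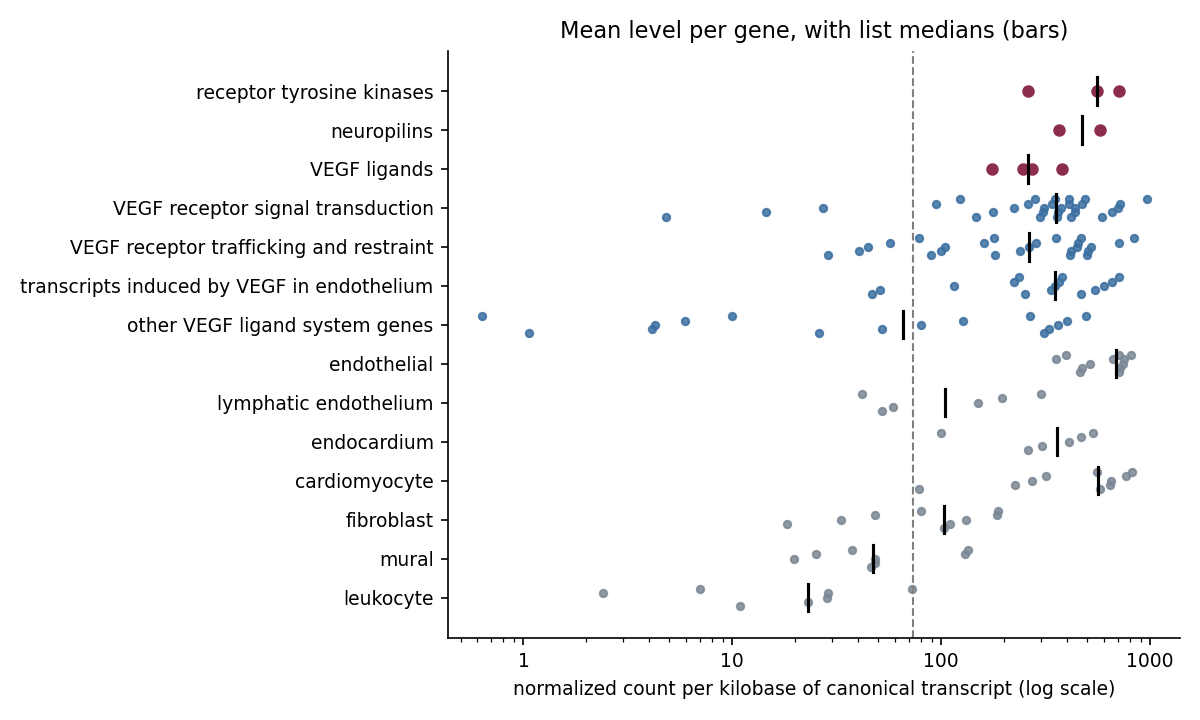
Mean normalized counts per kilobase of canonical transcript (log scale) of each gene, by class or list, with a bar at the median of the list and a dashed line at the median of all genes (73.0). The signal transduction list has its median at 353 and the remaining ligand-system genes at 65.8.

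Genes with the nearest levels per kilobase in the 3 mice were found by the Euclidean distance between log2 values over these 3 libraries, among 9356 genes of known length that averaged 200 or more normalized counts. With 3 libraries many genes lie close. Nrp1 had 24 genes within a distance of 0.1 and Vegfb 38, led by Sdc3, a syndecan gene, at 0.022 and by Gda, a guanine deaminase gene, at 0.014. Flt1 was nearest to Txnip (0.074), Tmem204 (0.083) and Msl1 (0.084), Kdr to Nrarp (0.056), Rpl7a (0.065) and Tpst2 (0.065), and Nrp2 to Myh6, the cardiac myosin heavy chain gene, at 0.040. Flt4 had no gene within 0.1, and its nearest were Filip1l and Slc38a2, each at 0.113, and Mtss2 at 0.119. Vegfa had 1 gene within 0.1. This was Nppa, at 0.054. Pgf also had 1 gene within 0.1, the kinetochore gene Ndc80 at 0.096, with 259, 482 and 389, and it was followed by the DNA replication genes Prim2 (0.142) and Mcm5 (0.146). For Vegfc the nearest was Etfrf1, at 0.037.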

How the data were processed

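RNA on tagged ribosomes of 3 EC-RiboTag hearts was read as 72 bases from one end of each fragment. Per the labels and the methods of the study, the authors trimmed reads with Trimmomatic 0.39, aligned them with STAR 2.7.11a to mm39 (GRCm39), removed duplicates with Picard 3.1.1 and multi-mapping, ribosomal and mitochondrial reads, counted exonic reads on the correct strand with featureCounts 2.0.4, and normalized with DESeq2 1.36.0. The deposited values are treated as a score, because the authors rounded normalized counts to whole numbers, and no count model was fitted. No gene with all values under 4 is listed.

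Levels are means ± SD over mice. Lengths came from the GENCODE annotation of GRCm39, which holds 17475 of 17583 identifiers (99.39%) and is newer than the one used by the authors. Replicates are called biological in the labels. The 9 genes and all lists were chosen with earlier results of these data known. The genes named are the 9, their 3 nearest, and from each list mainly the 5 highest and those under 10. Others were named after their values were seen. One gene that the rule names is not reported here. Ratios within a mouse were tested with an exact two-sided sign-flip permutation test. The worth of 1 read was tested on simulated tables (largest error 0.00015), as was the limit on CV (all 200 doubled genes found, 35 unchanged genes called among 9337). Intervals of counting cover counting error only. Alternatives were other lengths, scalings, pseudocounts and limits, and leaving out each mouse. Python 3.11.15, numpy 2.4.6, pandas 2.3.3, matplotlib 3.10.9, Biopython 1.88 and BLAST 2.17.0 were used.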

Additional observations from a re-analysis of the deposited data

How the results depend on the processing

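The choice of gene length changed more than any other setting run here, and it reversed ratios between genes of similar level. With all annotated exons the log2 ratio was -0.14 for Nrp2 to Kdr, -0.68 for Nrp1 to Flt4, -0.32 for Vegfb to Flt4, -0.30 for Flt4 to Vegfc, -0.36 for Nrp1 to Vegfb, -0.98 for Nrp1 to Vegfc and -0.62 for Vegfb to Vegfc, and 3 members reached 300 per kilobase. With the mean length of coding transcripts it was -0.032 for Kdr to Vegfa, -0.37 for Flt4 to Vegfc and -0.11 for Vegfb to Vegfc, and 6 neighbouring pairs were apart. Without division by length it was -0.33 for Vegfa to Flt4, -1.66 for Vegfb to Flt4, -0.53 for Vegfa to Nrp1 and -0.44 for Vegfb to Vegfc, and 7 pairs were apart. With the coding length alone, chosen after seeing the data although reads also cover untranslated parts, it was -0.19 for Flt1 to Nrp2, -0.53 for Kdr to Vegfa, -0.49 for Flt4 to Vegfc, -0.87 for Flt4 to Pgf, -0.11 for Nrp1 to Pgf, -0.18 for Vegfb to Pgf, -0.38 for Vegfc to Pgf and -0.36 for the summed kinases to the summed ligands.

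When each mouse was left out in turn, the log2 ratio of Vegfb to Flt4 ran from -0.081 to 0.16, that of Flt4 to Vegfc from -0.070 to 0.29 and that of Vegfa to Nrp1 from -0.14 to 0.16. The neighbouring pairs apart numbered 4 to 6, and the members with a CV over 20% numbered 1 to 2. The rule for pairs apart is easier to meet with 2 mice than with 3, so its counts cannot be set against the count with all mice. Without mouse 1, Pgf had a CV of 15.1% and Vegfa of 21.5%, and without mouse 2, Flt4 had 21.6%. Scaling to the endothelial markers also gave 2 such members. Scaling factors cancel in a ratio within a mouse, so other scalings could not change one. Pseudocounts reversed none of the ratios. Nor did the correction for duplicate removal, also chosen after seeing the data. By its form that correction keeps the order of genes within each mouse. No paired analysis was possible because the 3 libraries form a single group, with no other group to pair them with, and only ratios between genes were taken within a mouse. With 3 mice, no input and no second condition, the exact test could not reach 0.05 and levels cannot be read as enrichment.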
